A study of Arabidopsis thaliana with 15 samples.

Results

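The 5 DELLA repressors of Arabidopsis thaliana (RGA, GAI, RGL1, RGL2 and RGL3) and the 3 gibberellin receptors (GID1A, GID1B and GID1C) were followed through leaf RNA of WT plants and of ubc22 mutant plants. These 8 genes were picked by their AGI codes out of the 34307 loci of the deposited table, and each had exactly 1 row. All 8 passed the minimum level for testing. Their choice used no measured value of the comparisons, although earlier results of these data were known when the set was drawn up.

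Gibberellin is perceived by a GID1 receptor, and the hormone-bound receptor takes hold of a DELLA protein. The DELLA is then tagged with ubiquitin by an SCF ligase that carries the F-box protein SLY1, and is degraded, which releases the transcription factors that DELLAs hold back and ends the transcription that DELLAs promote with other partners. In leaves and stems this module sets how far cells divide and expand, and it feeds back on the genes for gibberellin synthesis and on the receptor genes, whose transcripts are known to go down when gibberellin acts. DELLA proteins are governed mainly after translation, so transcript values do not give the amount of repressor.

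The study sequenced RNA of leaves from 21-day-old Col-0 plants grown with a 16 h photoperiod at 22 °C. The 5 groups, with 3 libraries each, were ubc22 Type I, whose plants looked like WT, Type II with broader and rounder leaves, Type III with narrow, long and pale leaves, Type IV with small plants and serrated leaves, and WT. All mutant plants descended from 1 mutant parent and were assigned to a type by their leaf size, shape and colour. The labels do not describe the ubc22 allele or how many plants entered a library, so a p-value here speaks only of the spread among the libraries sequenced. UBC22 is a ubiquitin-conjugating enzyme, and the comparisons ask how the leaf transcriptome of each type differs from WT and from the other types.

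UBC22 itself was read first, as a check of the labels. Its normalized counts (reads divided by a size factor per library) were 226, 252 and 305 in Type I leaves, 227, 288 and 302 in Type II leaves, 320, 294 and 296 in Type III, 318, 378 and 243 in Type IV, and 663, 696 and 696 in WT. Every mutant library was below every WT library, at a log2 fold change of -1.40 in Type I leaves, -1.34 in Type II leaves, -1.17 in Type III and -1.15 in Type IV leaves (limma, adjusted p at most 0.000436). The libraries held 8865955 to 13138977 reads. Whole chromosomes were shifted in some types: against WT, the median tested locus of chromosome 2 had a log2 fold change of 0.50 in Type II leaves, that of chromosome 3 had 0.48 in Type III and that of chromosome 4 had -0.41 in Type IV, with the other chromosomes between -0.12 and 0.11 in each type. The chromosome 4 shift was uneven among the Type IV libraries, with a median deviation from the mean of all libraries of -0.34, -0.35 and -0.18. The median of its chromosome is therefore given beside the changes of the members. Of the flower markers AP1, AP3, PI and AG, all 4 were detected in Type I, Type III, Type IV and WT, and 2 of 4 were at 0 in all Type II libraries. Their summed level was 41.9 to 82.5 in Type I leaves, 11.0 to 12.4 in Type II leaves, 55.1 to 110 in Type III, 15.9 to 27.7 in Type IV and 13.6 to 24.6 in WT. The 5 leaf markers summed to at least 513600 in every library, and the 4 seed markers to at most 4.08. The 4 root markers, of which 1 or 2 were at 0 in each group, summed to 361 to 489 in Type I leaves, 752 to 1193 in Type II leaves, 863 to 1422 in Type III, 228 to 424 in Type IV and 257 to 475 in WT. Nearly all of that sum was 1 gene, PYK10, and PRP3, COBL9 and EXPA7 had at most 3 reads each in any library. The part of these marker sums in the values of the members was not tested. In bulk leaf RNA, fewer cells of a type and less RNA per cell cannot be told apart.

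The DELLA genes are single-exon genes spread over chromosomes 1, 2, 3 and 5, and their name comes from a short motif near the N terminus that the GID1 receptor binds. The stretches of coding strand around that motif are shown because they are where the repressors meet their receptors, and because they show how far the 5 sequences have drifted apart, which bears on whether reads could be assigned to the wrong gene. Each stretch is 60 bases of the TAIR10.1 assembly, at chr2:257174-257233 (minus strand) for RGA, chr1:5149477-5149536 (plus) for GAI, chr1:24748402-24748461 (plus) for RGL1, chr3:821109-821168 (minus) for RGL2 and chr5:5765747-5765806 (minus) for RGL3. Capitals mark the 15 bases at the place of the motif, which encode the 5 residues of the family name in RGA, GAI and RGL2 and differ from them by 1 residue in RGL1 and in RGL3. The marked bases begin at codon 44 in RGA, 28 in GAI, 32 in RGL1, 44 in RGL2 and 34 in RGL3.
RGA: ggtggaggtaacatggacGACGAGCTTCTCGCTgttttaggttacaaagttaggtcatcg
GAI: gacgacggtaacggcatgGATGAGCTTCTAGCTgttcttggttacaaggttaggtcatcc
RGL1: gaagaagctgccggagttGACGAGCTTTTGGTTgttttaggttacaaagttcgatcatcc
RGL2: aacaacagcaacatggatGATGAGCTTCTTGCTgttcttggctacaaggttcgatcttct
RGL3: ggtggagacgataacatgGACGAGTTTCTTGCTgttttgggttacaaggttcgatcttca
Over these 60 bases any pair had 61.7% to 73.3% of positions in common, and RGL2 and GAI had 14 of the 15 motif bases in common. Over whole coding sequences the nearest pair was RGA and GAI, at 73.9% identity, followed by RGL2 and RGL3 at 71.1%. No pair of the 8 reference transcripts had a run of 50 bases in common.

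Per kb of transcript, RGA was the most abundant member in every group. RGA reached 365 ± 8.56 normalized counts per kb in Type I leaves, 471 ± 25.3 in Type II leaves, 404 ± 11.2 in Type III, 326 ± 31.4 in Type IV and 332 ± 22.8 in WT (SD, n = 3). It made up 53.6% to 64.5% of the summed DELLA transcripts, as group means, and GAI 22.4% to 33.0%. RGL1 followed at 39.7 to 79.0 normalized counts per kb, and RGL2 and RGL3 were the rarest DELLA transcripts, with RGL2 at 6.98 to 21.4 and RGL3 at 11.0 to 27.5. Among the receptors, GID1A and GID1C were above GID1B in each group: in WT, GID1A had 87.2 ± 7.44, GID1C 72.2 ± 11.6 and GID1B 24.5 ± 11.3 normalized counts per kb. Precision follows abundance, since RGA was covered by 607 to 1157 reads a library, but RGL2 by 13 to 49 and RGL3 by 18 to 98.

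**Figure D1:**
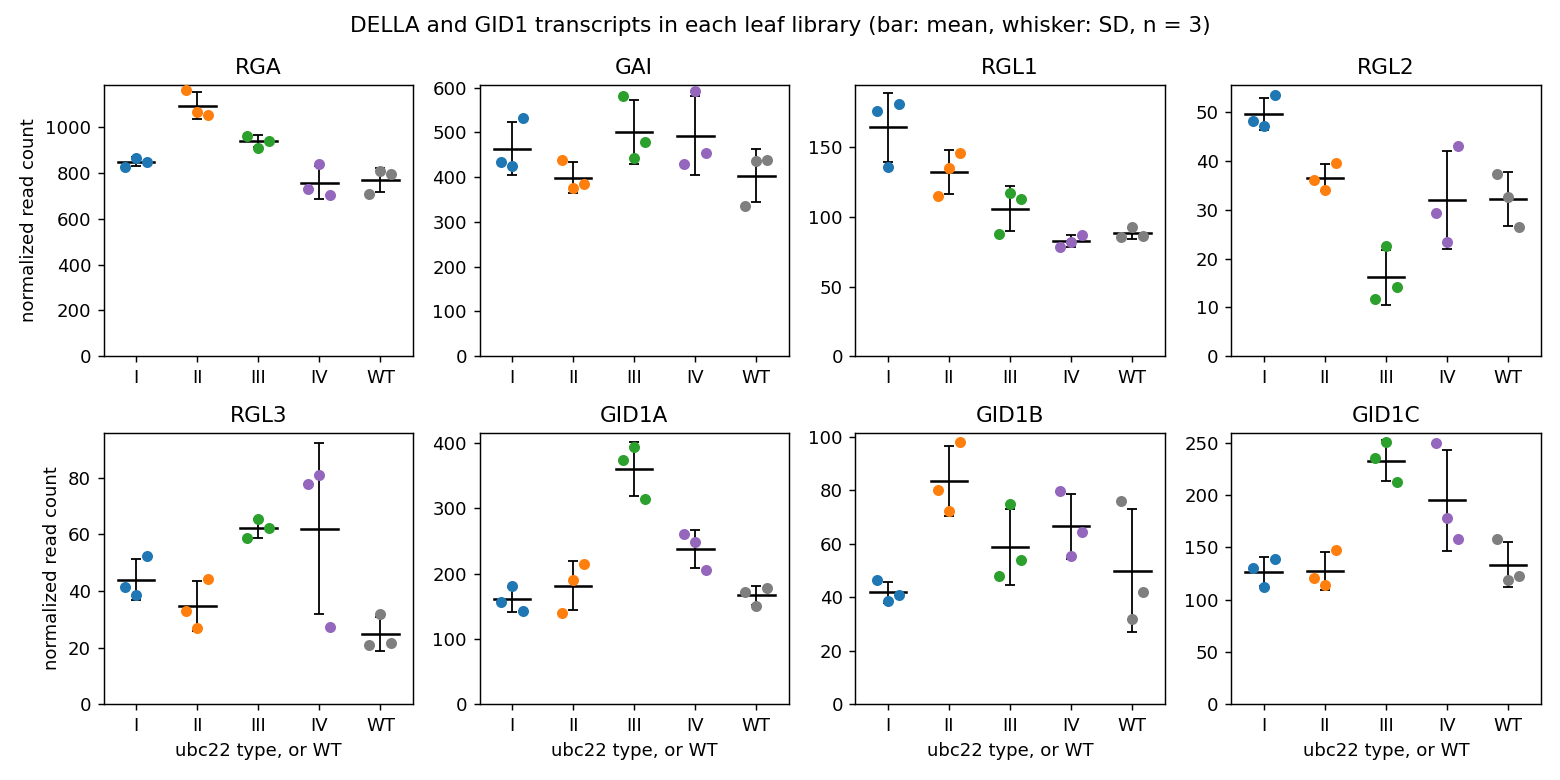
Normalized read count (y axis, from 0) of each of the 8 genes in the 15 libraries, grouped on the x axis by ubc22 Types I to IV and WT. Points are libraries, horizontal bars group means and whiskers SD (n = 3). By group mean, RGA was highest in Type II leaves, RGL1 in Type I leaves, RGL2 was lowest in Type III, and GID1A and GID1C were highest in Type III. RGL1 was not told apart between Types I and II, nor GID1C between Types III and IV.

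RGA (AT2G01570, chr2:255247-257568, minus strand), with GAI the main repressor of stem and leaf growth, was higher in Type II and Type III leaves than in WT leaves. Its normalized counts were 827, 867 and 849 in Type I leaves, 1160, 1068 and 1051 in Type II leaves, 962, 910.3 and 940 in Type III, 729, 840 and 702 in Type IV, and 710, 807 and 794 in WT. All Type II libraries were above all others, the Type III libraries came next without touching Type I or WT, the Type I libraries were just above WT, and Type IV overlapped WT. The log2 fold change against WT was 0.50 ± 0.08 in Type II (SE, limma, adjusted p = 0.0013) and 0.28 ± 0.08 in Type III leaves (adjusted p = 0.0113). It was 0.14 in Type I (adjusted p = 0.455) and -0.03 in Type IV leaves (adjusted p = 0.831), neither of them called at an adjusted p under 0.05. The Type II value sat at the middle of its chromosome: 51.6% of the tested chromosome 2 loci had a lower log2 fold change, and with every library centred per chromosome RGA had 0.0045 (adjusted p = 0.984). In Type III the median of chromosome 2 was -0.11, and RGA was 0.39 above it. The Type III call was lost without WT replicate 1 (log2 fold change 0.23, adjusted p = 0.0503). In the order of group means, Type II was above Type III (log2 fold change -0.22 for Type III against Type II, adjusted p = 0.0381), while the neighbours Type III and Type I, Type I and WT, and Type IV and WT were not told apart. That difference turned to 0.38, with Type III higher, when libraries were centred per chromosome (adjusted p = 0.00324). It was also not called in any fit that left out a Type III library or Type II replicate 1 or 2, with an adjusted p of up to 0.137.

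GAI (AT1G14920, chr1:5148982-5151415, plus strand), the closest relative of RGA, was called in no comparison. It had 434, 424 and 531 normalized counts in Type I leaves, 438, 375 and 384 in Type II leaves, 580.5, 442 and 479 in Type III, 428, 593 and 455 in Type IV, and 336, 436 and 439 in WT. The Type III libraries were all above the WT libraries by a narrow margin, and the other types overlapped WT. The largest log2 fold change against WT, 0.31 in Type III leaves (95% interval -0.0036 to 0.63, limma, adjusted p = 0.0957), passed the threshold when libraries were centred per chromosome (0.40, adjusted p = 0.0397) or scaled on chromosomes other than 2 and 3 (0.41, adjusted p = 0.0335). The median of chromosome 1 was -0.10 in Type III and -0.07 in Type II. In Type II leaves GAI had -0.01 against WT (adjusted p = 0.978), beside the 0.50 of RGA, with which it acts in growth.

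RGL1 (AT1G66350, chr1:24748105-24750186, plus strand), a DELLA with roles in seeds and flowers as well as in growth, was higher in Type I and Type II. Its normalized counts were 176, 136 and 181 in Type I leaves, 115, 136 and 146 in Type II leaves, 87.6, 117 and 113 in Type III, 78.8, 82.0 and 87.0 in Type IV, and 85.4, 92.7 and 86.6 in WT. Every Type I and Type II library was above every WT library, whereas Type III and Type IV overlapped WT. The log2 fold change against WT was 0.88 ± 0.14 in Type I (SE, limma, adjusted p = 0.0384) and 0.57 ± 0.14 in Type II (adjusted p = 0.0156), with chromosome 1 medians of 0.0038 and -0.07. The group means ran in the order Type I, Type II, Type III, WT and Type IV, and no neighbouring pair was told apart. Farther apart in that order, RGL1 was lower in Type III than in Type I (log2 fold change -0.63, adjusted p = 0.0027), in Type IV than in Type I (-0.97, adjusted p = 0.000312) and in Type IV than in Type II (-0.67, adjusted p = 0.00209). Under 27 alternatives the Type I fold change stayed between 0.80 and 1.01, but the call was lost in 11 of them. It was lost without Type I replicate 1 or 3, WT replicate 2 or 3, Type II replicate 2 or 3, Type III replicate 3 or Type IV replicate 1, with an adjusted p of 0.0501 to 0.317. The Type II call was lost without WT replicate 3 (0.56, adjusted p = 0.0517) or Type II replicate 3 (0.50, adjusted p = 0.0683). The flower marker sum was above WT in every Type I and Type III library, below it in every Type II library, and overlapped WT in Type IV. Its mean was highest in Type III, at 74.6, where RGL1 was not called, and 63.6 in Type I. The part of this sum in the RGL1 values was not tested.

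RGL2 (AT3G03450, chr3:819337-821652, minus strand), best known as the repressor of seed germination, fell in Type III. It had 48.3, 47.3 and 53.5 normalized counts in Type I leaves, 36.1, 34.1 and 39.7 in Type II leaves, 11.7, 22.5 and 14.3 in Type III, 29.5, 23.4 and 43.0 in Type IV, and 37.4, 32.7 and 26.5 in WT. The Type III libraries were below all others, the Type I libraries above all others, and Type II and Type IV overlapped WT. In Type III the log2 fold change was -0.99 ± 0.25 (SE, limma, adjusted p = 0.00507), against a chromosome 3 median of 0.48, and only 3.68% of tested loci of that chromosome had a lower value. The same gene was lower in Type III than in Type I (-1.61, adjusted p = 0.000148) and Type II (-1.18, adjusted p = 0.00123), and higher in Type IV than in Type III leaves (0.95, adjusted p = 0.0102). In Type I its 0.62 against WT was not called (adjusted p = 0.29). These values rest on few reads, 13, 24 and 14 in the Type III libraries. The Type III value against WT was called in all 26 alternatives that tested it, while the difference between Type IV and Type III was lost without Type III replicate 1 (0.76, adjusted p = 0.0519).

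RGL3 (AT5G17490, chr5:5763989-5766246, minus strand), whose transcript is known to respond to jasmonate and which links gibberellin to defence, was higher in Type III and Type IV. Its normalized counts were 41.3, 38.6 and 52.3 in Type I leaves, 33.1, 26.9 and 44.3 in Type II leaves, 58.7, 65.6 and 62.2 in Type III, 78.0, 80.9 and 27.4 in Type IV, and 21.0, 31.8 and 21.7 in WT. The Type III and Type I libraries were all above WT, and Type IV was divided, with replicates 1 and 2 the highest of the series and replicate 3 inside the WT range. The log2 fold change against WT was 1.31 ± 0.33 in Type III (SE, limma, adjusted p = 0.00467) and 1.16 ± 0.33 in Type IV leaves (adjusted p = 0.015), with chromosome 5 medians of -0.10 and 0.09. It was 0.81 in Type I (adjusted p = 0.291) and 0.46 in Type II (adjusted p = 0.377), and the order Type III, Type IV, Type I, Type II and WT had no neighbours that were told apart. The Type III call was kept in all 26 alternatives that tested the gene; the Type IV call was lost in 4, among them without Type IV replicate 1 (adjusted p = 0.078) or 2 (adjusted p = 0.0723) and without WT replicate 3 (adjusted p = 0.0502). MYC2, a DELLA partner and the transcription factor at the head of jasmonate responses, had 1126, 1058 and 429 normalized counts in Type IV against 406, 285 and 199 in WT, with Type IV replicate 3 the lowest of its group and still above each WT library. Its log2 fold change of 1.49 (adjusted p = 0.0214) was not called without Type IV replicate 1 or 2 or WT replicate 2 or 3, where the adjusted p was 0.0523 to 0.093. The higher MYC2 level was not particular to Type IV. Its mean was 871 in Type IV, 792 over all 4 types and 296 in WT. Averaged over the 4 types, MYC2 had a log2 fold change of 1.345 (limma, adjusted p = 0.0156). A link between the MYC2 and RGL3 values was not tested.

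Among the receptors, GID1A (AT3G05120, chr3:1430363-1432844, plus strand) rose most in Type III and less in Type IV. GID1A had 157, 181 and 143 normalized counts in Type I leaves, 140.4, 190.4 and 214 in Type II leaves, 375, 394 and 314 in Type III, 260.3, 248 and 205 in Type IV, and 172, 151 and 178 in WT. The Type III libraries were above all others, the Type IV libraries were above all WT libraries, and Type I and Type II overlapped WT. The log2 fold change against WT was 1.10 ± 0.15 in Type III (SE, limma, adjusted p = 4.63e-05) and 0.50 ± 0.15 in Type IV leaves (adjusted p = 0.0217), and 0.10 in Type II and -0.06 in Type I were not called (adjusted p = 0.708 and 0.891). GID1A lies on chromosome 3, whose median was 0.48 in Type III, and it was 0.63 above that median, higher than 88.5% of the tested loci there. In Type IV the chromosome median was 0.11, with GID1A 0.39 above it. It was called in Type III against WT in all 27 alternatives, with 0.63 (adjusted p = 0.0045) as the smallest value, under centring per chromosome. The Type IV call was lost under centring (0.39, adjusted p = 0.0703) and without WT replicate 2 or Type IV replicate 1 or 2 (0.43 to 0.47, adjusted p = 0.065 to 0.0881). The means were ordered Type III, Type IV, Type II, WT and Type I; Type IV was below Type III (-0.60, adjusted p = 0.00853) and above Type II (0.40, adjusted p = 0.049), and the last 3 were not told apart. The difference between Type IV and Type III shrank to -0.23 with libraries centred per chromosome (adjusted p = 0.326), and that between Type IV and Type II was lost in 18 of 27 alternatives, among them without any 1 of the WT libraries, with an adjusted p of 0.0195 to 0.323 over all of them.

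GID1C (AT5G27320, chr5:9628990-9631291, plus strand), the receptor closest to GID1A at 82.9% identity of coding sequence, followed the same order at its top end. It had 130, 112 and 138 normalized counts in Type I leaves, 120.3, 114 and 148 in Type II leaves, 236, 250.3 and 212 in Type III, 249, 178 and 157 in Type IV, and 158, 119 and 123 in WT. The Type III libraries were above all WT, Type I and Type II libraries, while Type IV ranged from the WT level to the Type III level. The log2 fold change against WT was 0.81 ± 0.17 in Type III (SE, limma, adjusted p = 0.00119) and 0.53 ± 0.17 in Type IV leaves (adjusted p = 0.026), against chromosome 5 medians of -0.10 and 0.09. GID1C was also higher in Type III than in Type I (0.87, adjusted p = 0.000766) and Type II (0.87, adjusted p = 0.000556), and higher in Type IV than in Type I (0.59, adjusted p = 0.0174) and Type II (0.59, adjusted p = 0.0115). Type III and Type IV were not told apart (adjusted p = 0.213), nor were WT, Type II and Type I among themselves as neighbours. The Type III call held in all 27 alternatives, and the Type IV call was lost in 5, among them without Type IV replicate 1 (0.34, adjusted p = 0.14), WT replicate 2 (0.45, adjusted p = 0.0955) or WT replicate 3 (0.48, adjusted p = 0.0827). The differences of Type IV from Type I and Type II were lost as well without Type IV replicate 1 (0.40 in both, adjusted p = 0.0916 and 0.0678), and that from Type I also without Type I replicate 2 (0.51, adjusted p = 0.0727).

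GID1B (AT3G63010, chr3:23289243-23291486, plus strand), the receptor known for some binding to DELLAs even without gibberellin, had its highest mean in Type II. It had 46.3, 38.6 and 40.7 normalized counts in Type I leaves, 80.2, 72.4 and 97.9 in Type II leaves, 47.8, 75.0 and 54.0 in Type III, 79.6, 55.4 and 64.5 in Type IV, and 76.0, 31.8 and 42.1 in WT. WT replicate 1 was well above the other 2 WT libraries, and all 4 types overlapped WT. Against WT no type was called: the log2 fold change was 0.81 ± 0.26 in Type II (SE, limma, adjusted p = 0.0525), 0.48 in Type IV leaves (adjusted p = 0.174), 0.30 in Type III leaves (adjusted p = 0.367) and -0.16 in Type I (adjusted p = 0.812). Without WT replicate 1 the value was 1.16 in Type II (adjusted p = 0.00378), 0.83 in Type IV leaves (adjusted p = 0.012) and 0.65 in Type III leaves (adjusted p = 0.0302), all called. With all libraries the chromosome 3 median was -0.08 for Type II leaves, 0.48 for Type III leaves and 0.11 for Type IV leaves, so that GID1B was 0.18 below its chromosome in Type III. GID1B was higher in Type II than in Type I (0.97 ± 0.26, adjusted p = 0.0241), without overlap, which was the only receptor difference called between these types. That call was lost without Type I replicate 2 or 3 or Type II replicate 1 or 3 (0.85 to 1.00, adjusted p = 0.0524 to 0.0913). In the order of means no neighbouring groups were told apart.

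The 300 bases upstream of GID1A and GID1B are shown because GID1A was called in Type III and Type IV against WT, with GID1B beside it as a receptor gene that was not called with all libraries. That contrast depends on WT replicate 1, without which GID1B was called in Types II, III and IV. They were read from the TAIR10.1 assembly in the direction of the gene, at chr3:1430063-1430362 for GID1A and chr3:23288943-23289242 for GID1B, both on the plus strand. Capitals mark matches, on either strand, to TAACAAA, the gibberellin-response element known from barley amylase promoters.
GID1A: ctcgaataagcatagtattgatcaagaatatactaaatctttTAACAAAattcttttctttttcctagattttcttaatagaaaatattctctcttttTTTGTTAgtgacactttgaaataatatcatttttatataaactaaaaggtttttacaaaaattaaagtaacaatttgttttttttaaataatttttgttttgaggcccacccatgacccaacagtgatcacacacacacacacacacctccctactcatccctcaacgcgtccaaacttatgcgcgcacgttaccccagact
GID1B: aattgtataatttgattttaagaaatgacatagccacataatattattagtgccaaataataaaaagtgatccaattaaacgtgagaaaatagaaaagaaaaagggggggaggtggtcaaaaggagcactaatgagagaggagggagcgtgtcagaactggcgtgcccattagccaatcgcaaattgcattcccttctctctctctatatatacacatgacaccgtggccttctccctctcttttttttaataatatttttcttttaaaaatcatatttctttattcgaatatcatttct
GID1A had 2 matches, starting 258 and 202 bases before the gene, and GID1B had 0. This short motif is common, with 1 or more matches in 19.2% of the 27443 gene upstream windows of the same length. The share of windows with 2 matches was not counted. Whether the matches have a part in the receptor transcript values was not tested. The G-box CACGTG (7.09% of windows), the evening element AAAATATCT (2.79%) and the CCA1-binding site AAAAATCT (7.94%) were searched on both strands too. None of these 3 occurred upstream of these 2 receptor genes, and no matches overlapped. Among the DELLA genes, RGL3 had 1 TAACAAA match at 171 bases and GAI had 1 evening element at 136 bases.

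**Figure D2:**
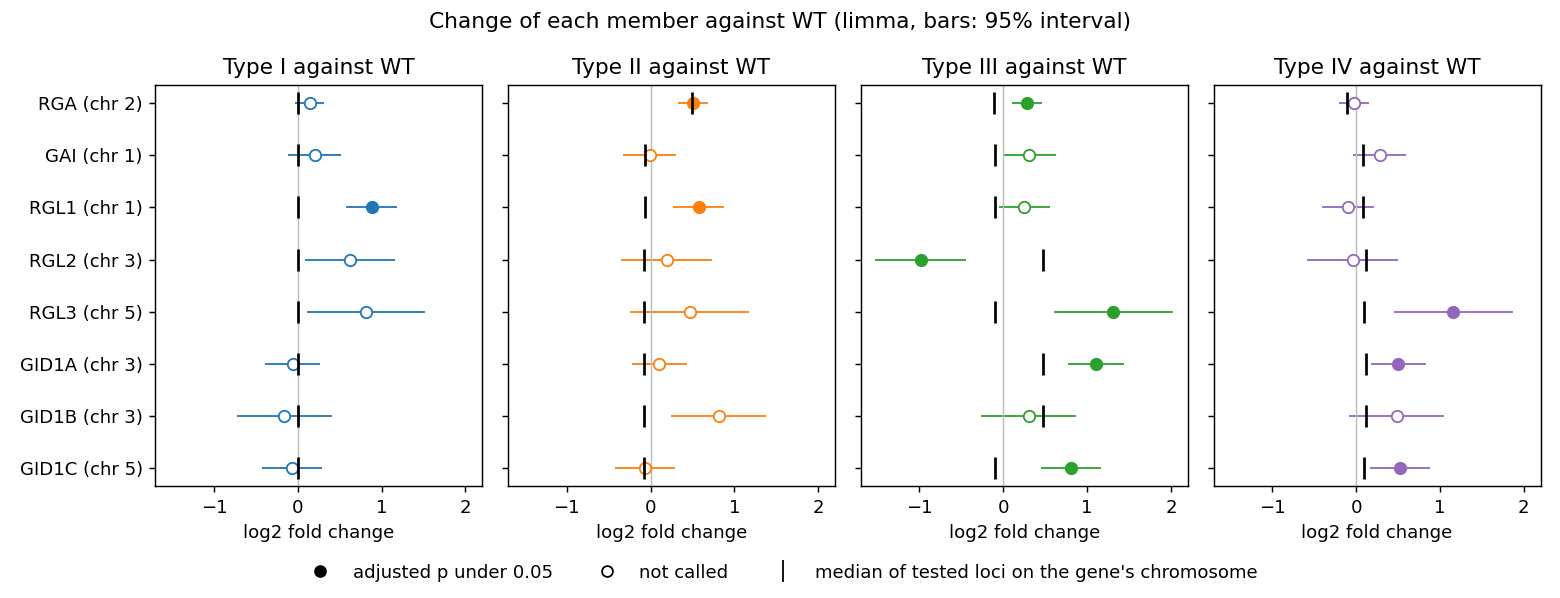
Log2 fold change against WT (x axis) of each member (rows) in Types I to IV (panels), with 95% intervals from limma. Filled points had an adjusted p under 0.05, and the vertical tick is the median of all tested loci on the chromosome of that gene. RGA sat on the chromosome 2 median in Type II leaves, GID1A was above and RGL2 far below the chromosome 3 median in Type III.

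Counted by comparison, 1 of the 8 members passed in Type I against WT (RGL1, higher), where 0.0739% of the 17595 tested loci were called (0.0455% higher and 0.0284% lower). In Type II 2 of 8 passed, both of them higher (RGA and RGL1), against 14.6% of all tested loci (10.2% higher and 4.38% lower). In Type III 5 of 8 passed, 4 higher (RGA, RGL3, GID1A and GID1C) and 1 lower (RGL2), against 47.6% of loci (24% higher and 23.6% lower). In Type IV 3 of 8 passed, all higher (RGL3, GID1A and GID1C), against 33% of loci (16% higher and 17% lower). With so many loci called in Types II to IV, the counts there show nothing particular to the members. Averaged over the 4 types, RGA (0.23), RGL1 (0.40), RGL3 (0.94) and GID1A (0.41) were higher than WT (limma, adjusted p from 0.0191 to 0.0253), and these 4 of 8 stand beside 23.1% of loci (12.4% higher and 10.7% lower). These 5 comparisons use the same WT libraries. The Type I count was 0 in 8 of the 15 fits that left out 1 library, the Type II count was 1 without WT replicate 3 or Type II replicate 3, and the Type IV count was 0 without Type IV replicate 1 and 1 without Type IV replicate 2 or WT replicate 2 or 3. In the average over types the number called fell to 0 when WT replicate 3 was left out, and to 2 for either of the other WT libraries.

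Between types, GID1A and GID1C were higher in Types III and IV than in Types I and II. In Type III against Type I 4 of 8 members passed (41.6% of loci called, 21.3% higher and 20.3% lower), and in Type III against Type II 5 of 8 (51.6%, with 25.3% higher and 26.3% lower). In Type IV against Type I 3 of 8 passed (27.8%, with 12.7% higher and 15.1% lower), and in Type IV against Type II 4 of 8 (41.8%, with 19.5% higher and 22.3% lower). Both receptors passed in each of these 4 comparisons, and RGL1 was lower in 3 of them, the exception being Type III against Type II (log2 fold change -0.32, adjusted p = 0.0741). RGL3 was higher in Type III than in Type II (0.85, adjusted p = 0.0439), a call lost in 11 of 26 alternatives, among them without WT replicate 3, Type I replicate 1 or 2, Type II replicate 1 or 2 or any 1 of the Type III libraries (adjusted p = 0.0507 to 0.147). Type II and Type I differed in 2 members (RGA and GID1B, both higher in Type II leaves, beside 14.3% of loci, 9.45% higher and 4.81% lower), and Type IV and Type III in 3 (RGA and GID1A lower and RGL2 higher in Type IV, beside 34.6% of loci, 15.2% higher and 19.4% lower). Without Type IV replicate 1 the count was 1 in Type IV against Type I and 2 in Type IV against Type II, GID1A being lost in both (0.50 and 0.33, adjusted p = 0.0645 and 0.159), and without Type IV replicate 3 it was 5 in Type IV against Type I. The GID1A difference of Type IV from Type I was also lost without Type I replicate 3 (0.49, adjusted p = 0.0546). That of Type IV from Type II was also lost without any 1 of the WT libraries, Type I replicate 1, Type II replicate 1 or 2, Type III replicate 1 or 2 or Type IV replicate 2 (0.23 to 0.45, adjusted p = 0.0503 to 0.238), and with edgeR (adjusted p = 0.0547) and DESeq2 (adjusted p = 0.0568). In Type III against Type II the count was 3 without Type II replicate 2 or any 1 of the Type III libraries, and in Type II against Type I it was 1 without Type I replicate 2 or 3 or Type II replicate 1 or 3.

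Summed per kb, the DELLA transcripts were at 1.08-fold to 1.29-fold of WT in the 4 types, and the receptor transcripts at 0.941-fold to 1.87-fold. The DELLA sum was 675 ± 36.5 normalized counts per kb in Type I leaves, 729 ± 31.6 in Type II leaves, 695 ± 28.9 in Type III, 609 ± 70.9 in Type IV and 565 ± 48.0 in WT (SD, n = 3). The GID1 sum was 173 ± 2.92 in Type I leaves, 205 ± 31.9 in Type II leaves, 344 ± 36.5 in Type III, 262 ± 43.7 in Type IV and 184 ± 27.0 in WT. Relative to WT the receptor sum was 1.87-fold in Type III and 1.43-fold in Type IV, and the DELLA sum 1.23-fold and 1.08-fold. There were thus 0.257 receptor transcripts per DELLA transcript in Type I leaves, 0.282 in Type II leaves, 0.495 in Type III, 0.435 in Type IV and 0.330 in WT. The ratio lay between 0.443 and 0.566 in the Type III libraries and between 0.265 and 0.417 in WT, without overlap, while Type IV (0.367 to 0.539) overlapped WT. That overlap rested on WT replicate 1, at 0.417, as WT replicates 2 and 3 had 0.265 and 0.308. These sums are descriptions with no test of their own, and the Type III ratio relative to WT, 1.50-fold, became 1.73-fold without WT replicate 1. The sums were not corrected for the shifted chromosomes. RGA, on chromosome 2 (median 0.50 in Type II), made up 64.5% of the Type II DELLA sum. GID1A, on chromosome 3 (median 0.48 in Type III), made up 54.8% of the Type III GID1 sum. The part of these shifts in the sums and the ratio was not tested.

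**Figure D3:**
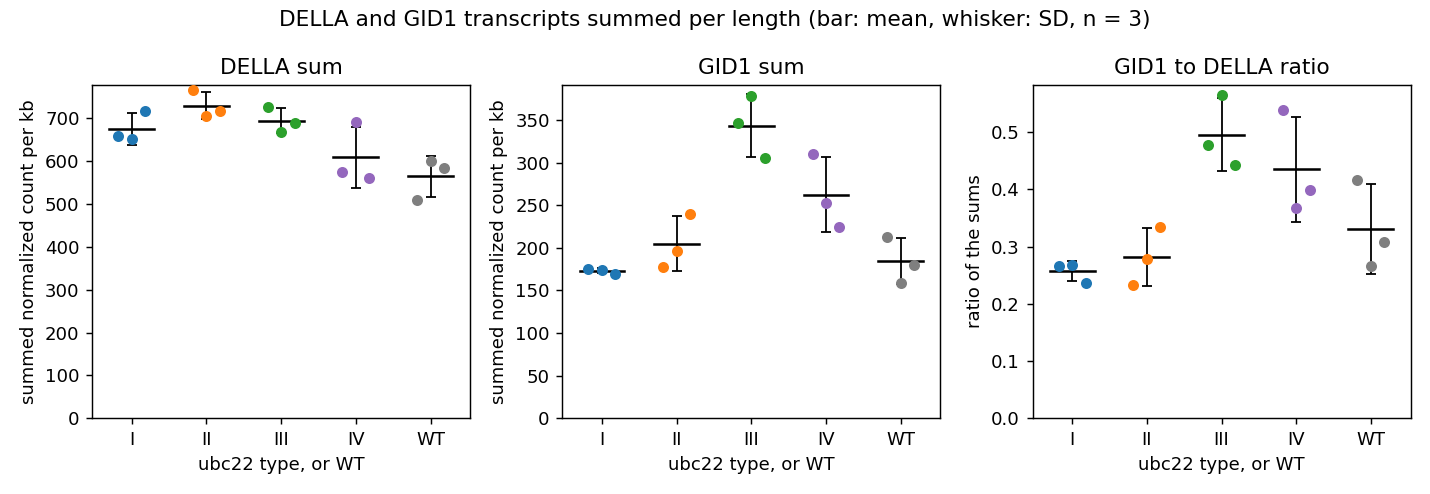
Summed normalized count per kb of transcript of the 5 DELLA genes (left) and the 3 GID1 genes (middle), and the ratio of the sums (right), in each library of Types I to IV and WT. Points are libraries, bars group means and whiskers SD (n = 3). The Type III libraries were the highest in the GID1 sum apart from 1 Type IV library at 310 and held the highest mean ratio, 0.495.

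Across the 15 libraries, on the log2 scale, GID1A and GID1C varied together (Pearson r = 0.874) and RGL2 ran opposite to both (r = -0.80 with GID1A and -0.67 with GID1C). RGL3 went with GID1C at 0.705 and GID1A at 0.624, while RGA and GAI had 0.0433 between them. These are descriptions over libraries that fall into 5 groups, and RGL2 and GID1A lie on the same shifted chromosome. The loci most like GID1A among all tested ones were AT5G43440, a 2-oxoglutarate-dependent oxygenase (r = 0.977), RTH, a homolog of the ethylene regulator RTE1 (0.961), and the neutral invertase gene A/N-InvC (0.960). Those most like GID1C were AT3G54740 (0.961), SGF29b (0.951) and the blue-light receptor gene CRY2 (0.949). The 3 loci most like RGA, AT2G40770, RH37 and SYTA, all lie on chromosome 2 as RGA does (0.927, 0.926 and 0.919). For RGL2 they were AT5G17700 (0.958), UGT89C1 (0.953) and UGT74B1 (0.940), a glucosyltransferase of glucosinolate synthesis. For RGL3 they were ATBETAFRUCT4, a vacuolar invertase (0.950), GLX2-3 (0.931) and ZIF1 (0.929). For GAI they were GAMMA-TIP, TCH4 and AT3G55430 (0.915, 0.887 and 0.899), for RGL1 AT4G23670, AT4G29700 and AT1G66100 (0.889, 0.880 and 0.874), and for GID1B the 3 chromosome 2 loci AT2G14080, AT2G26920 and ATPSK2 (0.927, 0.918 and 0.904).

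Types III and IV also differed from the other groups in genes of the circadian clock, which were looked at after their values had been seen. CCA1, which peaks at dawn, had a mean of 3533 normalized counts in Type I leaves, 4238 in Type II leaves, 406 in Type III, 1935 in Type IV and 2933 in WT. GI, which peaks late in the day, had 77.7 in Type I leaves, 62.0 in Type II leaves, 897 in Type III, 324 in Type IV and 67.3 in WT. TOC1 and PRR5 followed GI, with TOC1 at 622 in Type III, 391 in Type IV and 201 in WT, and PRR5 at 782, 222 and 10.4 in the same 3 groups. The labels do not give the hour of harvest. The part of the time of day in the values of the members and of the pathway genes below was not tested.

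Genes for gibberellin synthesis were called in both directions in Types III and IV, as were all tested loci (47.6% called in Type III and 33% in Type IV). Of 14 synthesis genes listed, 7 were tested. In Type III 2 rose and 1 fell, and in Type IV 2 rose and 2 fell. In Type II 2 rose and in Type I none was called, beside 14.6% and 0.0739% of all tested loci. GA20OX2, an oxidase of the penultimate steps, had 40.6, 19.7 and 41.8 normalized counts in Type III, 26.3, 25.6 and 13.7 in Type IV, and 4.68, 5.46 and 6.02 in WT. Both types were clear of WT, with a log2 fold change of 2.39 in Type III leaves (limma, adjusted p = 0.000261) and 1.79 in Type IV leaves (adjusted p = 0.00427). GA20OX2 averaged under 10 in Type I, Type II and WT, so it reached the minimum level for testing only through Types III and IV, where it had to be higher. GA3OX1, which makes the bioactive form and is the best known target of gibberellin feedback, had 55.1, 27.2 and 33.6 in Type III, 27.9, 27.7 and 36.2 in Type IV, and 67.8, 95.5 and 98.7 in WT. It fell by 1.20 on the log2 scale in Type III leaves (adjusted p = 0.0019) and by 1.48 in Type IV leaves (adjusted p = 0.000901). GA20OX1 fell by 1.13 in Type IV leaves (adjusted p = 0.0077), on chromosome 4 with its median of -0.41, and was not called with libraries centred per chromosome (adjusted p = 0.0728). The early enzyme gene GA2 rose by 0.78 in Type III leaves (adjusted p = 2e-04), and GA3 and KAO1 rose by 0.47 and 0.50 in Type II (adjusted p = 0.00581 and 0.017). The KAO1 call was lost without WT replicate 2 or Type II replicate 2 or 3 (adjusted p = 0.0575 to 0.0825). The median log2 fold change of the 7 genes was 0.21 in Type III and 0.15 in Type IV, beside -0.0088 and 0.0011 for all tested loci. The counts and medians of this list include GA20OX2.

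Of 11 genes for gibberellin inactivation 3 could be tested, all of them among the 7 genes for 2-oxidases, and the other 8 were rarer. In Type III 2 of them rose, in Type IV 1 rose, and in Types I and II none was called. Of all tested loci, 47.6% were called in Type III, 33% in Type IV, 0.0739% in Type I and 14.6% in Type II. GA2OX2 had 46.3, 38.6 and 81.4 normalized counts in Type I leaves, 64.2, 50.7 and 61.0 in Type II leaves, 157, 206 and 173 in Type III, 120.2, 73.4 and 62.6 in Type IV, and 39.8, 27.3 and 34.9 in WT. It rose in Type III leaves (log2 fold change 2.37, limma, adjusted p = 6.94e-06) and Type IV (1.27, adjusted p = 0.00272), and all libraries of Type II were also above WT without being called (0.78, adjusted p = 0.0657), although the value was called without Type I replicate 3 (adjusted p = 0.0317) or Type IV replicate 1 (adjusted p = 0.0452). GA2OX1 rose in Type III leaves (2.15, adjusted p = 0.00562), with 34.3, 21.6 and 30.6 against 2.34, 8.18 and 8.42 in WT. It averaged under 10 in every group but Type III and was tested only through that group.

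**Figure D4:**
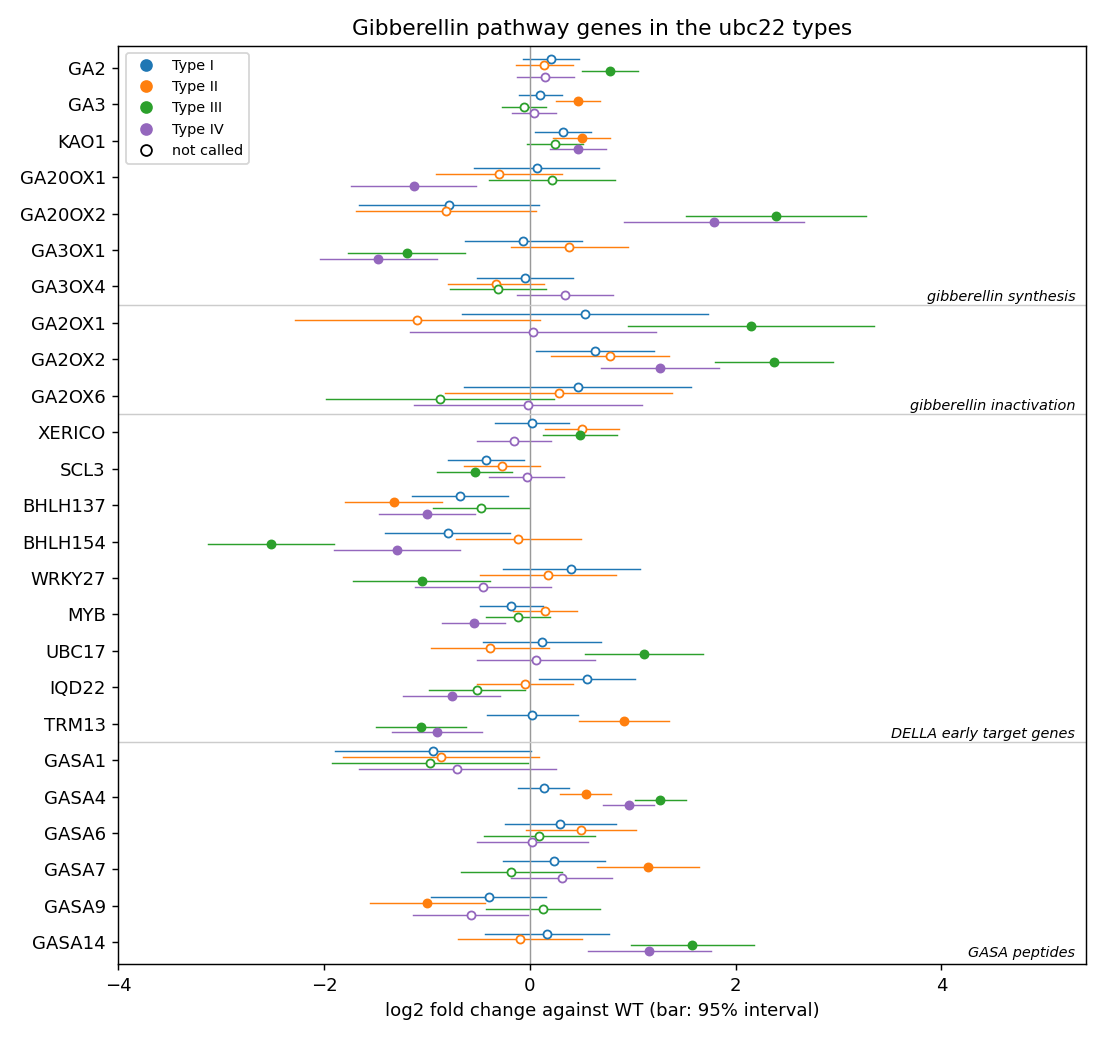
Log2 fold change against WT (x axis) of the tested genes for gibberellin synthesis, gibberellin inactivation, DELLA early targets and GASA peptides (rows), with 95% intervals from limma. Colours are Types I to IV, and filled points had an adjusted p under 0.05. GA2OX2 rose while GA3OX1 fell in Types III and IV. GA20OX2 rose in both, and GA2OX1 in Type III, but each was tested only through the types where it was high.

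Downstream of the receptors stand the SCF ligase that marks DELLAs for breakdown and the enzymes that modify them. The F-box gene SLY1, named for its role and outside the rule for named genes, had mean normalized counts of 113 in Type I leaves, 94.4 in Type II leaves, 87.6 in Type III, 90.9 in Type IV and 106 in WT, with adjusted p of at least 0.197 in each comparison with WT. Of 9 tested genes of turnover and modification, 3 rose and 1 fell in Type III, 3 rose and 2 fell in Type IV, 2 rose in Type II and none was called in Type I. Beside these counts, 47.6%, 33%, 14.6% and 0.0739% of all tested loci were called, in the same order of types. In Type III SPY, the O-fucosyltransferase that acts on DELLAs, rose by 0.67 (limma, adjusted p = 3.18e-05) and SEC, the enzyme that adds O-GlcNAc to them, by 0.34 (adjusted p = 0.00505). Both lie on chromosome 3, whose median was 0.48, and neither was called with libraries centred per chromosome. COP1, a ubiquitin ligase that can also target DELLAs, fell by 0.74 in Type III leaves (adjusted p = 1.59e-05) against a chromosome 2 median of -0.11. In Type II COP1 and the phosphatase gene TOPP4 had 0.35 and 0.44 (adjusted p = 0.0195 and 0.032), both below the chromosome 2 median of 0.50. Those 2 calls were lost without WT replicate 2 or 3, with an adjusted p of 0.0759 to 0.126, and COP1 was also lost without Type II replicate 1 or 2 and TOPP4 without Type II replicate 3. In Type IV the SCF subunit gene ASK1 rose by 0.48 (adjusted p = 0.0018). SEC and CUL1 had 0.30 and -0.24 in Type IV leaves (adjusted p = 0.0183 and 0.0213), and both calls were lost without Type IV replicate 1 or 2, SEC without WT replicate 2 or 3 and CUL1 without WT replicate 1 (adjusted p = 0.0565 to 0.0873). The median of the 9 genes was 0.01 in Type III and 0.10 in Type IV, beside -0.0088 and 0.0011 for all tested loci.

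Among 23 tested genes for proteins that bind DELLAs, 6 rose and 5 fell in Type III, 3 rose in Type IV, 2 rose and 2 fell in Type II and none was called in Type I. The shares of all tested loci called were 47.6%, 33%, 14.6% and 0.0739%, in the same order of types. RAP2.3, an ethylene response factor held back by DELLAs, had 1196, 1096 and 1326 normalized counts in Type III, 791, 1017 and 777 in Type IV, and 216, 382 and 278 in WT. It rose by 2.08 in Type III leaves (limma, adjusted p = 2.62e-06) and by 1.59 in Type IV leaves (adjusted p = 0.000109). GAF1, a zinc finger factor that works with DELLAs as coactivators, had 621, 601 and 585 in Type III against 128, 160.0 and 148 in WT, a rise of 2.05 (adjusted p = 9.34e-07), well above the chromosome 3 median. TCP14, a growth regulator, rose by 0.74 in Type III leaves (adjusted p = 0.00056), 0.27 above the chromosome 3 median, and was not called with libraries centred per chromosome (adjusted p = 0.133). The brassinosteroid factor BZR1 had 0.42 in Type IV leaves (adjusted p = 0.0182), a call lost without WT replicate 1 or 2 or Type IV replicate 1 (adjusted p = 0.0597 to 0.0736). In Type II the phytochrome-interacting factors PIF4 (0.71, adjusted p = 0.00539) and PIF1 (0.60, adjusted p = 0.00413), both on chromosome 2, were 0.22 and 0.11 above its median and were not called with libraries centred per chromosome. The chromatin remodeller gene SWI3C had -0.33 in Type II (adjusted p = 0.0266), a call lost without WT replicate 1 or 3 or Type II replicate 1 or 2 (adjusted p = 0.0547 to 0.0929). The median of the 23 genes was 0.09 in Type III and 0.19 in Type IV, beside -0.0088 and 0.0011 for all tested loci.

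Of 9 tested genes known as early DELLA targets in seedlings, 2 rose and 4 fell in Type III, 5 fell in Type IV, 1 rose and 1 fell in Type II and none was called in Type I. Of all tested loci, 47.6% were called in Type III (24% higher and 23.6% lower) and 33% in Type IV (16% higher and 17% lower). The shares were 14.6% in Type II (10.2% higher and 4.38% lower) and 0.0739% in Type I. The list's median log2 fold change was -0.51 in Type III and -0.55 in Type IV, beside -0.0088 and 0.0011 for all tested loci. BHLH154, a helix-loop-helix gene, had 27.1, 13.1 and 15.3 normalized counts in Type III, 36.6, 40.4 and 51.8 in Type IV, and 79.5, 122 and 122 in WT. It fell by 2.52 in Type III leaves (limma, adjusted p = 6.9e-06) and by 1.29 in Type IV leaves (adjusted p = 0.00343). BHLH137 fell by 1.32 in Type II (adjusted p = 0.00133) and by 1.00 in Type IV leaves (adjusted p = 0.00334), and UBC17, a ubiquitin-conjugating enzyme gene, rose by 1.11 in Type III leaves (adjusted p = 0.00357). TRM13 fell by 1.06 in Type III leaves (adjusted p = 0.000711) and by 0.90 in Type IV leaves (adjusted p = 0.0041) and rose by 0.91 in Type II (adjusted p = 0.00862), where it was 0.42 above the chromosome 2 median and was not called under centring (adjusted p = 0.279).

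The GASA genes encode small cysteine-rich peptides that include classical gibberellin-induced transcripts. Of 14 listed, 6 were tested: 2 rose in Type III and in Type IV, 2 rose and 1 fell in Type II leaves, and none was called in Type I. All tested loci were called at shares of 47.6%, 33%, 14.6% and 0.0739%, in the same order of types. GASA4 had 1837, 1565 and 1586 normalized counts in Type III, 1254, 1327 and 1447 in Type IV, 878, 1005 and 1141 in Type II leaves, and 722, 716 and 631 in WT. It rose by 1.27 in Type III leaves (limma, adjusted p = 1.02e-06), 0.96 in Type IV leaves (adjusted p = 5.06e-05) and 0.54 in Type II (adjusted p = 0.00619). GASA14 rose by 1.58 in Type III leaves (adjusted p = 0.000356) and by 1.16 in Type IV leaves (adjusted p = 0.00603). In Type II GASA7, on chromosome 2, rose by 1.15 (adjusted p = 0.00445), 0.65 above the chromosome median, and was not called under centring (adjusted p = 0.146). GASA9 fell by 1.00 in Type II (adjusted p = 0.0188), a call lost without WT replicate 2 or 3 or Type II replicate 1 or 3 (adjusted p = 0.0515 to 0.09). Neither of the 2 tested gibberellin transporter genes was called in any type, NPF3 having 329 normalized counts in Type III and 437 in WT (log2 fold change -0.37, adjusted p = 0.138).

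In Type I, which looked like WT, none of the 80 tested genes of these lists, other GRAS genes included, was called by limma, edgeR or limma-voom, and DESeq2 called 1. At an unadjusted p under 0.05 there were 17 of 80 (21.2%), beside 14.5% of all tested loci. The nearest was RAP2.3, with 529, 383 and 652 normalized counts in Type I against 216, 382 and 278 in WT (log2 fold change 0.84, limma, adjusted p = 0.124). It was called without Type I replicate 2 (1.05, adjusted p = 0.0472), and the early target BHLH137 (-0.68, adjusted p = 0.203) without Type IV replicate 2 (adjusted p = 0.0387). Counted over the same 80 genes, in Type II 12 rose and 5 fell, in Type III 22 rose and 16 fell, and in Type IV 16 rose and 12 fell, which is 21.2%, 47.5% and 35% called, beside 14.6%, 47.6% and 33% of all tested loci. The 80 include GA20OX2 and GA2OX1, which were tested only through the types where they were high.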

How the data were processed

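Leaf RNA was sequenced in 15 libraries of 5 groups with a kit that marks no strand, per the labels. The authors deposited a normalized signal for each locus and library, that is, a read count divided by a size factor. These values were whole multiples of 1 step per library within a tolerance of 1e-06, which gave back whole reads. The submitters' processing notes name TAIR 10 as the build and, as tools with no stated role, HTSeq 0.6.0, DESeq2 1.12.4, StringTie 1.0.3 and STAR 2.4.0j, so how reads of near-identical or overlapping genes were divided is not given in the sources used here. Loci without an AGI code (260, with 0.136% of reads) entered the fit but no list.

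On log2(normalized count + 1), a scale that understates changes of low genes, limma 3.58.1 in R 4.3.3 was run with a trended variance over the 17595 loci whose mean was at least 10. All libraries entered 1 fit with 11 comparisons, Benjamini-Hochberg adjustment ran over all tested loci, and a call needed an adjusted p under 0.05. The fit was checked on simulated data for Type I against WT only. The simulation had no shifted chromosomes, so the check does not cover the other comparisons. Levels per kb divide by the spliced reference transcript. Chromosome medians, sums and correlations are descriptions. The members, lists and tests were chosen with earlier results of these data known. The named genes are the members, up to 3 called genes per list and type by smallest p (with none called, the gene of smallest p), and the 3 loci most correlated with each member. Sequences and coordinates come from TAIR10.1 with its annotation. KAO2, SCL26 and the region upstream of GID1C are not reported here. The alternatives were pseudocounts of 0.5 and 5, no filter, a mean of at least 50, scaling by library totals, by TMM or by size factors from chromosomes other than 2 and 3, centring per chromosome, edgeR 4.0.16, DESeq2 1.42.0, limma-voom, fits restricted to the pair of groups, and omission of each library.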

Additional observations from a re-analysis of the deposited data

How the results depend on the processing

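Over 27 alternatives, 1498 of 1625 recomputed changes of a member were unaltered in direction and call, 92 lost the call, 8 gained one and 27 turned sign. Members called against WT in Type I went to 0 with library totals, limma-voom or the compared groups alone. In Type II the count was 1 with centring per chromosome; in Type III it was 3 with a mean of at least 50, which leaves RGL2 and RGL3 untested; in Type IV it was 1 with centring or with the compared groups alone. Centring gave 0 for Type II against Type I, 1 for Type IV against Type II and 2 for all types against WT, and a mean of at least 50 gave 3 for Type III against Type II. Leaving out 1 library gave 0 to 1 in Type I, 1 to 3 in Type II, 5 in Type III, 0 to 4 in Type IV (0 without Type IV replicate 1), 0 to 4 for all types, 1 to 2 for Type II against Type I, 1 to 5 for Type IV against Type I, 3 to 6 for Type III against Type II and 2 to 5 for Type IV against Type II, and 4 for Type III against Type I and 3 to 4 for Type IV against Type III. Signs turned mostly near 0. With library totals GAI in Type II against WT was 0.0296 and RGA in Type IV 0.0077; with size factors from the other chromosomes GAI in Type II was 0.0578 and GID1C 0.0033. Centring gave 0.0508 for GAI and 0.0123 for GID1C in Type II, -0.17 for GID1B in Type III, 0.0841 for RGA in Type IV, and for RGA -0.14 in Type II against Type I, 0.38 in Type III against Type II and 0.0796 in Type IV against Type II. These turns come by construction, since centring takes the median of its chromosome off every gene. The change minus the chromosome median was 0.056 for GAI and 0.018 for GID1C in Type II, and -0.175 for GID1B in Type III. Leaving out 1 library gave ranges across 0 for GID1A (-0.15 to 0.0186), GID1B (-0.43 to 0.18) and GID1C (-0.14 to 0.0613) in Type I, for GAI (-0.14 to 0.0578), GID1A (-0.0268 to 0.277) and GID1C (-0.17 to 0.0645) in Type II, for RGA (-0.10 to 0.0247) and RGL2 (-0.27 to 0.15) in Type IV, and for RGL2 over all types (-0.18 to 0.0584). Depth limits RGL2 and RGL3 most. For 68 pathway genes by comparison, 1752 of 1831 recomputed changes were unaltered in direction and call, 65 lost the call, 6 gained one and 8 turned sign. These 68 were SLY1 and the named genes, picked by smallest p in the same data, so they do not describe the whole lists. Centring turned COP1 to -0.15, TOPP4 to -0.0627 and SCL27 to -0.11 in Type II, SEC to -0.13 in Type III, and CUL1 to 0.18 and SLY1 to 0.20 in Type IV, and without 1 library SLY1 in Type I ranged from -0.056 to 0.186. Centring also ended the calls of SWI3C (-0.27), GASA9 (-0.94) and SCL22 (-0.19) in Type II and of SEC (0.19) and BZR1 (0.33) in Type IV. No paired analysis was possible because the labels number no replicates: the numbers used here follow the order of the samples and only name libraries.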

Other observations

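Other members of the GRAS family, to which the DELLAs belong, were called in both directions. Of 26 listed, 21 were tested: in Type III 5 rose and 5 fell (47.6% of all loci called), in Type IV 5 rose and 3 fell (33%), in Type II 3 rose and 1 fell (14.6%), and in Type I none was called by limma, with 4 at an unadjusted p under 0.05 (14.5% of all loci) and 0 called by edgeR, DESeq2 or limma-voom. SCL4 had a mean of 40.7 normalized counts in Type III against 168 in WT, a fall of 2.04 on the log2 scale (limma, adjusted p = 2.87e-06). SCL30 rose by 1.08 in Type III (adjusted p = 0.000165), of which 0.60 lies above the median of its chromosome 3. SCL27, a target of the microRNA miR171 in leaves, fell by 0.67 in Type III (adjusted p = 3.89e-05) and by 0.36 in Type IV (adjusted p = 0.00768), and rose by 0.39 in Type II (adjusted p = 0.0115), below the chromosome 2 median of 0.50. SHR, the regulator of root and leaf vascular patterning, had 92.9 in Type IV against 179 in WT, a fall of 0.95 (adjusted p = 0.000317) on chromosome 4, whose median fell by 0.41. SCL14 rose by 0.44 in Type IV (adjusted p = 0.00584). SCL21 had 0.76 in Type II (adjusted p = 0.00218), 0.26 above the chromosome 2 median, and was not called with libraries centred per chromosome (adjusted p = 0.301). SCL22 had -0.27 in Type II (adjusted p = 0.0322), a call lost without WT replicate 2 or 3 or Type II replicate 1 or 3 (adjusted p = 0.0894 to 0.112).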
